A study of Caenorhabditis elegans with 3 samples.

Results

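The genes described here are the 100 with the lowest ratios among those known only by a sequence name, in RNA of mid-L3 hermaphrodites of Caenorhabditis elegans. A sequence name joins the name of the clone that carried the gene in the genome project, a cosmid or a YAC, to a number within that clone, as in ZK813.3. A gene keeps only this name when no mutant, family or function has given it another. The 100 were chosen by their mean log2 ratio over all 3 arrays, out of 5791 sequence-named genes with a value on every array and 14936 genes with any name. Their low ratios are therefore a description of the choice and carry no test.

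RNA of 3 mid-L3 hermaphrodite preps, labelled TP01, was hybridised to 3 two-colour arrays, 1 prep to each. The other channel of every array held the same wild-type mRNA, which the labels call a mixed reference. The labels do not say what was mixed, how the preps were grown, or which allele, age in hours or culture each came from. Which channel stands in the numerator is not stated either, so signs are kept as deposited: a negative log2 ratio is low in the deposited direction, and a fold is the size of the difference with no direction. No signal intensity was used here, so a dim spot could not be told from a bright one. The arrays hold whole-animal RNA, in which fewer cells of a type and less RNA per cell cannot be told apart.

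L3 is a larval stage of C. elegans, followed by L4 and the adult. At mid-L3 the gonad is growing and its germ cells divide, while sperm, oocytes, eggshells, yolk uptake and the fluid of the adult uterus all come later. Genes used only in those adult tissues are known to have little RNA in L3 larvae. The tables used here give no protein product or role for any of the 100, so none is stated.

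Lists of named genes set the scale of the ratios. Of 30 major sperm protein genes, 29 were negative past the threshold, a limma Benjamini-Hochberg adjusted p under 0.05, and 0 were positive, against 13.8% negative and 13.5% positive among all 19075 features tested. Their medians were -2.53, -2.15 and -2.69 in preps 1, 2 and 3. Genes of a family with near-identical sequences can share signal on such arrays. No sequence was compared here, so these may not be 30 separate readings. Of 25 measured oocyte and eggshell genes, 22 were negative and 0 positive, with a median of -2.64. All 4 ule genes, named for expression in the uterine lumen, were negative, with a median of -4.83. Of 3 measured yolk genes, only 1 was negative and 0 positive, with a median of 0.14. The negative gene was vit-2 at -5.52 ± 0.78 (SD, n = 3 preps, as for every error here), while the highest, vit-5, was at 0.52 ± 0.68. Of 22 measured muscle genes, 16 were positive and 0 negative, with a median of 1.59. The ends of the other lists were msp-33 at -4.51 ± 0.20 and msp-38 at 0.09 ± 0.43 for sperm, cpg-3 at -4.16 ± 0.97 and egg-1 at -0.005 ± 0.16 for oocyte and eggshell, ule-3 at -5.19 ± 0.58 and ule-1 at -3.40 ± 1.00 for the uterine lumen, and myo-3 at 3.12 ± 0.92 and unc-54 at -0.08 ± 0.34 for muscle.

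The means of the 100 sequence-named genes ran from -5.51 to -2.19, a 45.6-fold to a 4.57-fold difference, with a median of -2.68 against 0.008 over all features. Of the 100, 2 had a mean at or below -5, 7 at or below -4, 32 at or below -3 and 64 at or below -2.5. They made up 35 of the 100 lowest genes of any name. Down to the level of the last of them lay 232 named genes, and the other 132 carried gene names. The commonest name classes among those were msp with 17 of its 30 measured genes, col (collagens) with 16 of 135, clec (C-type lectins) with 5 of 208, fbxa (F-box proteins) with 4 of 137 and ule with all 4. All 100 sequence-named genes passed the limma threshold on the negative side, which follows from the choice. The share among all sequence-named genes was 17.0% negative and 9.76% positive.

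**Figure D1:**
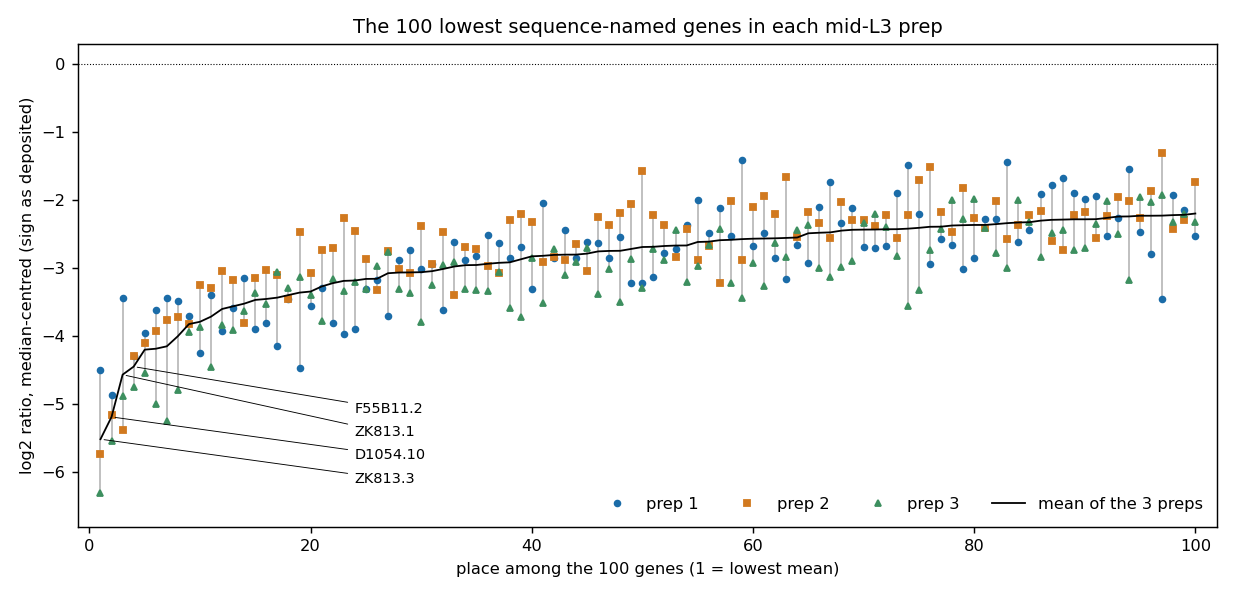
Median-centred log2 ratio (vertical axis, sign as deposited) of each of the 100 genes in preps 1, 2 and 3, ordered by mean (horizontal axis, 1 = lowest). Vertical lines join the 3 preps of a gene and the black line is their mean, which climbs steeply over the first genes, from -5.51 for ZK813.3, and slowly from there to -2.19 for the last.

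The lowest gene was ZK813.3 on chromosome X, with log2 ratios of -4.50, -5.74 and -6.30 in preps 1, 2 and 3. These are linear ratios of 0.045, 0.018 and 0.013 as deposited. Only 1 other named gene, vit-2, had a lower mean. Linear ratios came in steps of 0.001, so at 0.013 a single step is a visible part of the value. D1054.10 on chromosome V followed at -4.86, -5.15 and -5.54. Its 3 values lay within 0.68 of each other, with a mean of -5.18 ± 0.34. ZK813.1, close to ZK813.3 on its clone, stood at -3.44, -5.38 and -4.87. Its prep 1 value lay far above the other two.

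F55B11.2 on chromosome IV was at -4.29, -4.29 and -4.75, and Y45F10C.2 on the same chromosome at -3.95, -4.10 and -4.54. Both were lowest in prep 3 and kept within 0.59 of a log2 unit. T05E12.3 had ratios of -3.62, -3.93 and -5.0, F14H3.6 of -3.44, -3.76 and -5.24, and F40G12.5 of -3.49, -3.72 and -4.79. These 3 genes all lie on chromosome V, and in all 3 preps 1 and 2 agreed closely while prep 3 was more than 1 log2 unit lower. C01G6.3 on chromosome II was the steadiest of the 12 lowest, at -3.71, -3.82 and -3.93. F18A1.7, also on II, was at -4.24, -3.25 and -3.87. The list of 12 closed with Y62H9A.3 on X at -3.39, -3.29 and -4.44, and F11A5.9 on V at -3.93, -3.04 and -3.83. F18A1.7, Y62H9A.3 and F11A5.9 were highest in prep 2, whereas the 8 lowest genes were highest in prep 1 except F55B11.2, whose preps 1 and 2 were level.

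The border of the choice was fine. Just inside it lay C14B1.2 at -2.22 ± 0.27, K05F6.10 at -2.21 ± 0.07 and C38C3.4 at -2.19 ± 0.41. Just outside lay F17H10.2 at -2.19 ± 0.17, M01H9.3 at -2.19 ± 0.57 and C46A5.4 at -2.19 ± 0.33. The gap between the last gene inside and the first outside was far smaller than the SD of either.

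The genes differed in how closely the preps agreed. The SD over the preps had a median of 0.42 and ran from 0.07 to 1.11, and the distance from the lowest to the highest prep exceeded 1 log2 unit in 35 genes and 2 units in 3. The 5 steadiest were K05F6.10, F26G1.2, F55G1.7, W02D9.6 and F56H9.2. K05F6.10 read -2.15, -2.29 and -2.20, and F26G1.2 read -2.85, -2.84 and -2.71. W02D9.6 was the only one of the 100 with more than 1 probe. Its 2 probes had means of -3.38 and -3.41, but within preps they stood up to 0.64 apart (-3.76 and -3.12 in prep 1), so its small SD of 0.09 is that of an average of probes.

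The 5 genes of largest spread were H04M03.3, R05A10.1, ZC373.2, F15E6.3 and ZK813.1. H04M03.3 was at -3.45, -1.30 and -1.92, low in prep 1 above all. R05A10.1 was at -1.47, -2.22 and -3.56, and ZC373.2 at -1.41, -2.87 and -3.43. Both ran the other way, with prep 1 the least negative and prep 3 the lowest. F15E6.3 was at -4.47, -2.47 and -3.13. No gene of the 100 had a prep above -1.30, and 72 had all 3 preps at or below -2.

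Values in a prep that took no part in the choice were described by choosing the 100 lowest sequence-named genes from the other preps. Chosen from preps 2 and 3, the genes had a median of -2.68 in prep 1, against -2.78 in the choosing preps and -0.08 over all sequence-named genes. Chosen from preps 1 and 3, they had a median of -2.39 in prep 2, and chosen from preps 1 and 2, -2.95 in prep 3. In each left-out prep all 100 were below 0, and 98, 97 and 99 of them were below -1 in preps 1, 2 and 3. Over all sequence-named genes, 10.2%, 8.27% and 9.74% were below -1 in those preps. The weakest repeats, named after their values were seen, were W09G12.7 at -0.54 in prep 1, C08E3.13 at -0.18 in prep 2 and F07A11.1 at -0.23 in prep 3. Between 91 and 92 of each such list were among the 100. All arrays share the reference RNA and the probes, so a left-out prep is not independent of either.

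The 100 genes were spread over all 6 chromosomes, most densely on I and V. Chromosome V held 31, or 2.26% of its 1370 sequence-named genes, and chromosome I held 18 of 775 (2.32%). Chromosome IV held 17 of 888 (1.91%) and X 18 of 984 (1.83%). Chromosomes II and III had the fewest, 10 of 1048 (0.954%) and 6 of 685 (0.876%). Of the 100 highest sequence-named genes, V again held 31, X held 23 and II held 15, while I and IV had 11 each and III had 9. These counts were not tested. In the gene annotation 98 of the 100 are protein-coding, and T13F2.9 and Y40H7A.9, both on IV, are pseudogenes.

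Chromosome X held the lowest gene and the third. After ZK813.3, ZK813.1, Y62H9A.3 and F53H4.2 (-3.56 ± 0.37), its genes ran from C17G1.2 at -3.06 ± 0.22 to C35C5.9 at -2.23 ± 0.26. Between these lay F53A9.8, C39D10.7, C53B7.2, Y62H9A.4, T22B7.7, R09F10.8, ZC373.2, ZK813.2, C04B4.2, R04D3.2, F08F1.4 and C41G11.1. Prep 3 was the lowest prep in 13 of the 18 and prep 1 in 2, against 38.9% and 15.2% of all 2243 named genes there. R09F10.8, at -1.99, -2.88 and -2.97, had the same order of preps as the chromosome's medians, of which the lowest was -3.15 in prep 3.

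Chromosome V had the most members and a wide range. After the 5 already given came C06B3.6 at -3.22 ± 0.56, F45D3.4 at -3.15 ± 0.18 and Y75B12B.1 at -3.06 ± 0.32. The rest, in rising order, were F53F4.4, D1086.6, B0507.8, T22F3.11, F47B8.10, F57F4.2, D1086.7, F47B8.4, F56H9.2, F21C10.10, D1086.1, F07G11.1, F14D7.2, D1086.5, C37C3.9, W01F3.2, C13A2.9, F36G9.7, F14H3.4, F47B8.8, T01C3.3, F35E8.10 and C38C3.4, from -2.97 to -2.19. Prep 3 was the lowest prep in 19 of the 31, against 42.0% of all 3857 named genes there. T22F3.11 at -2.69, -2.20 and -3.71 and F47B8.10 at -2.03, -2.91 and -3.51 were of that kind, whereas F21C10.10 was lowest in prep 2, at -2.12, -3.22 and -2.42.

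On chromosome IV the next genes after F55B11.2, Y45F10C.2 and F15E6.3 were Y45F10C.4 at -3.06 ± 0.71 and F17E9.4 at -2.95 ± 0.31. Y43C5A.3, T13F2.9, R09E10.6, T12G3.6, Y57G11B.5, Y40H7A.9, R05A10.1, B0513.4, H01G02.1, F55G1.7, F42C5.3 and H04M03.3 followed, up to -2.22. Prep 3 was the lowest in 12 of these 17 genes and prep 2 in 0, against 34.2% and 31.9% of all 2238 named genes there.

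Chromosome I had a different order of preps from IV, V and X. Its lowest genes were T08B2.12 at -4.13, -3.10 and -3.06, W02D9.6, and ZC308.4 at -3.29, -2.74 and -3.77. C30F12.3 was at -3.97, -2.25 and -3.33, and K07A1.6 at -3.88, -2.45 and -3.20. Prep 1 was the lowest prep in 13 of the 18 genes, against 55.2% of all 2026 named genes of the chromosome. The rest of the 18 were W09C3.7, F26A3.4, T05F1.2, C35E7.5, C48E7.7, C32F10.4, W05F2.3, C09D4.2, C01G8.1, T24D1.3, F46A8.7, K07A1.13 and R06C7.6, from -3.16 to -2.35. C48E7.7 and T24D1.3 came nearest to 0, with prep 2 values of -1.56 and -1.50.

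Chromosomes II and III held the remaining 16. On II, EEED8.3 at -3.45 ± 0.40 and F57C2.4 at -3.34 ± 0.24 came after C01G6.3 and F18A1.7, followed by F26G1.2, C05C10.5, F22B5.4, E04F6.8, ZK930.2 and K05F6.10. On III, ZC395.5 was at -3.52 ± 0.34 and C23G10.11 at -3.46 ± 0.38, well below F09F7.6, Y37D8A.19, Y39E4B.5 and C14B1.2, which lay between -2.42 and -2.22. The genes of chromosome II had the closest chromosome medians over the preps, at -2.85, -2.93 and -2.81. Prep 1 was the lowest prep in 5 of the 10 genes on II and 4 of the 6 on III. Among all named genes there it was the lowest in 51.2% and 50.6%.

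**Figure D2:**
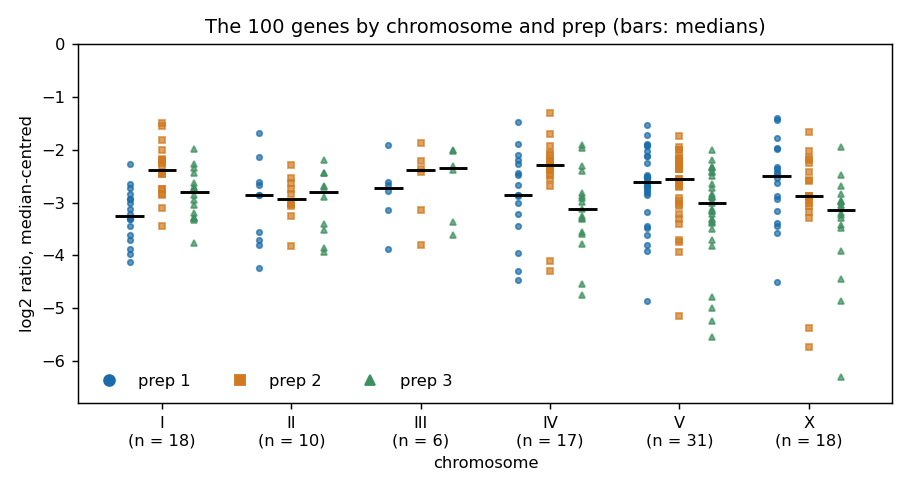
Median-centred log2 ratio (vertical axis) of the 100 genes by chromosome (horizontal axis, number of genes in brackets), with a point for each gene and prep and a black bar at the median. On chromosome I prep 1 has the lowest median (-3.25, against -2.38 and -2.81), and on IV, V and X prep 3 has it (-3.13, -3.01 and -3.15).

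The order of the preps moved with the place of the probe and with the chromosome, which mostly cannot be told apart here. In the deposited order, the first 16 of 32 blocks of equal size held 1987 of 2026 named genes on I, 2588 of 2605 on II and all 1895 on III. They held 948 of 2238 on IV, 0 of 3857 on V and 3 of 2243 on X. Of the 100 genes, 38 had their probe in these first 16 blocks, among them all of chromosomes I, II and III. Prep 1 was the lowest prep in 25 of these 38, and in 3876 of all 7463 named genes there. In the last 16 blocks prep 3 was the lowest in 43 of 62 genes, against 3099 of all 7473 named genes there. With each array centred within blocks, prep 1 was the lowest in 20 of the 38 (all named genes there 2509 of 7463) and prep 3 in 42 of the 62 (2541 of 7473). On chromosome I prep 1 was then the lowest in 11 of 18 members and in 779 of 2026 named genes. The part of probe position in these orders beyond the block was not tested.

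Over all 100, prep 3 was the lowest prep in 49, prep 1 in 36 and prep 2 in 15, with medians of -2.99, -2.75 and -2.47. At the other end of the scale the preps did not stand in mirror order. Of the 100 highest sequence-named genes, 50 were highest in prep 2, 33 in prep 1 and 17 in prep 3, with medians of 1.58 in prep 3, 1.97 in prep 1 and 2.08 in prep 2. Prep 3 thus read lower than the other preps at both ends, though every array was centred on the same median. No scaling of the spread was applied to these values. Scaling, described below, set preps 2 and 3 further apart in lists chosen without them, not closer.

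Several of the 100 lie side by side. On 7 clones there was more than 1 of them, 18 genes in all, and 82 were alone on their clone. Taking measured protein-coding genes in chromosome order, 6 pairs of neighbours were both among the 100, formed by 10 genes. In the ZK813 clone on X all 3 measured genes belonged to the 100, in the order ZK813.3, ZK813.2, ZK813.1. ZK813.2 was the mildest, at -3.16, -1.66 and -2.84. Its highest prep was prep 2, in which ZK813.3 and ZK813.1 read -5.74 and -5.38.

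The Y62H9A clone on X had a sharp boundary on either side. Of its 14 measured genes in chromosome order, the first 2 were at 0.07 ± 0.11 (Y62H9A.1) and 0.20 ± 0.11 (Y62H9A.2). The next 4 were Y62H9A.3 at -3.71 ± 0.64, Y62H9A.4 at -2.74 ± 0.67, stha-3 at -4.43 ± 0.40 and ule-5 at -4.63 ± 0.36. The remaining 8 lay between -0.21 and 0.44, and none of them passed the threshold. The genes stha-3 and ule-5 carry gene names and so could not be among the 100. They were named, like the other genes of these clones, after their values were seen.

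The D1086 clone on V held 4 of the 100 among its 7 measured genes. D1086.6, D1086.7 and D1086.5 lay next to each other at -2.95 ± 0.32, -2.74 ± 0.34 and -2.43 ± 0.22. Beside them was him-5, a gene needed for meiotic crossovers on the X chromosome, at -1.80 ± 0.29 (limma adjusted p = 3.13857e-05). D1086.3 then stood at 0.86 ± 0.10 and was positive past the threshold (limma adjusted p = 0.00385), before D1086.2 at -1.41 ± 0.19 and D1086.1 at -2.58 ± 0.61. A single gene of the opposite sign thus interrupted the run.

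Elsewhere the low genes alternated with others. On the F47B8 clone of chromosome V, F47B8.4, F47B8.8 and F47B8.10 were at -2.67 ± 0.28, -2.26 ± 0.26 and -2.82 ± 0.74. F47B8.5, pepm-1, srm-4 and srm-6, which lie between them, ranged from -0.50 to -0.05 and did not pass. F14H3.4 at -2.28 ± 0.32 and F14H3.6 at -4.15 ± 0.96 were separated by F14H3.5 at -0.43, -0.42 and -1.91, which was also negative past the threshold (limma adjusted p = 0.025). On Y45F10C of chromosome IV, Y45F10C.2 at -4.20 ± 0.31 and Y45F10C.4 at -3.06 ± 0.71 were followed by fbxa-215 at -2.48 ± 0.40. The probes of Y45F10C.2 and Y45F10C.4 lay 4 places apart in the deposited order. So did those of F14H3.4 and F14H3.6, and those of F47B8.8 and F47B8.10. Also near each other were those of F47B8.4 and F47B8.8, and of D1086.5 and D1086.1. On K07A1 of chromosome I, the probes of K07A1.13 and K07A1.6 lay far apart in the deposited order. The genes themselves, at -2.36 ± 0.60 and -3.18 ± 0.72, were numbers 2 and 7 of its 11 measured genes in chromosome order. The 4 genes between ran from K07A1.3 at -1.24 ± 0.50, negative past the threshold, to K07A1.5 at 0.43 ± 0.58, and 4 of the 9 other genes of the clone were negative. Genes of near-identical sequence can share signal on such arrays, and no sequence was used here to look for them.

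**Figure D3:**
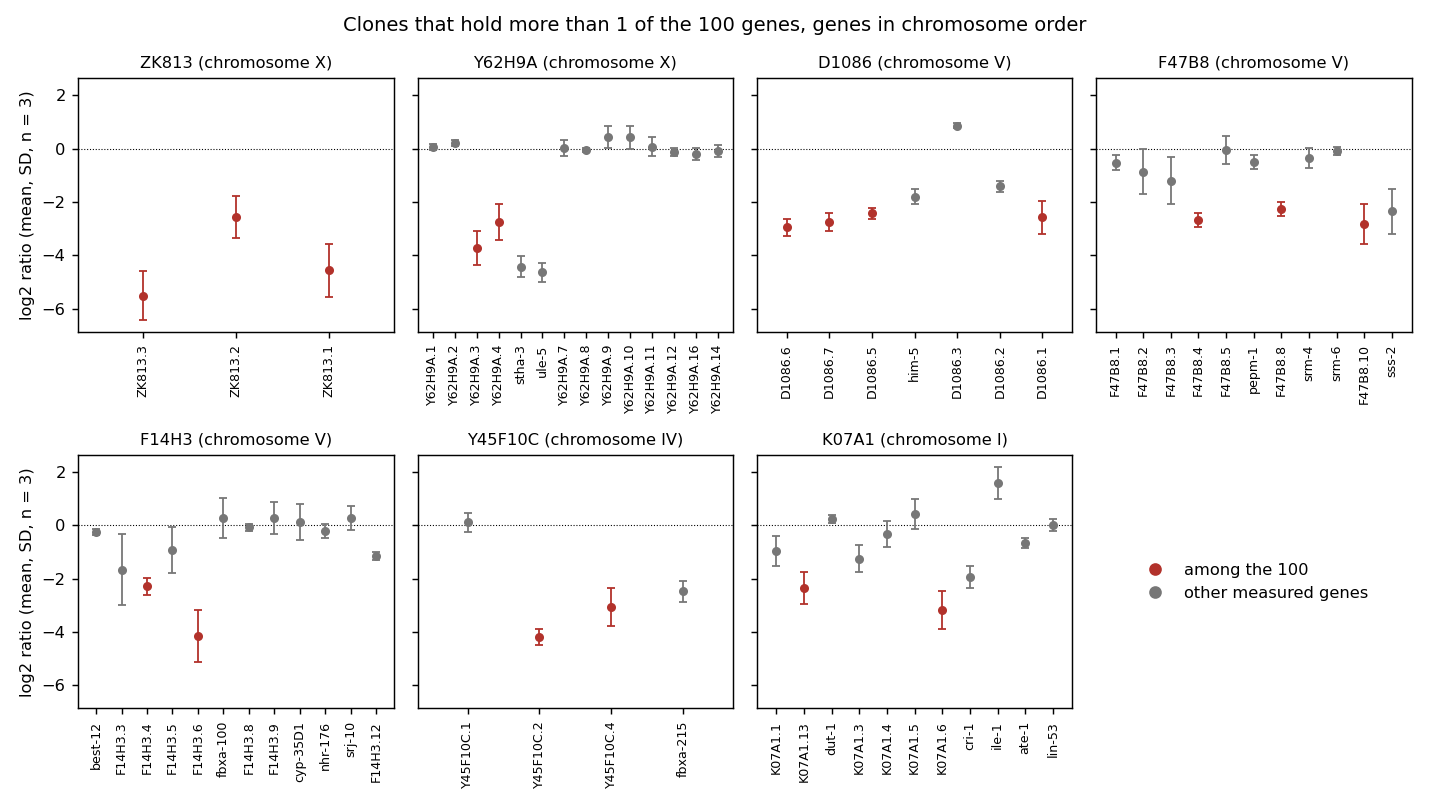
Mean log2 ratio with SD over 3 preps (vertical axis) of every measured gene on the 7 clones with more than 1 of the 100, in chromosome order along the horizontal axis. Red points are among the 100 and grey points are the other genes. In Y62H9A 4 adjacent genes lie at -2.74 or lower between genes near 0, and in D1086 a single gene, at 0.86, is positive.

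Of the genes next to the 100, more were negative than over all genes. The nearest measured protein-coding genes on each side, leaving out the 100 themselves, numbered 186. Of these 56 were negative past the threshold, or 30.1%, against 15.7% of all 14296 genes in the chromosome order. Positive were 16, or 8.60%, against 14.4%. The median of the neighbours was -0.19, with -0.20, -0.21 and -0.27 in preps 1, 2 and 3, against -0.009 over all genes in the order. No test was made of these differences. The 96 neighbours with a gene name took no part in the choice. The 90 with a sequence name were ranked by it and stayed outside the 100, so they could reach no lower than the border. Of the 100 genes, 45 had 1 negative neighbour, 8 had 2 and 47 had 0.

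The lowest neighbour was ule-3, next to D1054.10, at -4.60, -5.20 and -5.75. The pair thus had nearly the same values in every prep, D1054.10 being at -4.86, -5.15 and -5.54. The next was stha-3, beside Y62H9A.4. Then came cpg-3, which encodes a chondroitin proteoglycan of the eggshell, at -5.04, -3.12 and -4.33 beside R06C7.6 at -2.35 ± 0.39, whose probe lay 4 places from its own. The cuticlin gene cut-3 was at -2.97 ± 0.48, beside F22B5.4. These 4 had limma adjusted p between 8.43649e-08 and 1.60355e-06.

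Low genes also had high neighbours. The highest was mlt-11, a gene of molting with protease inhibitor domains, at 2.47 ± 0.42 beside W01F3.2 (-2.39 ± 0.21). The xanthine dehydrogenase gene xdh-1 was at 1.68 ± 0.12 beside F55B11.2, the fourth lowest of the 100. D1054.9 was at 1.92, 2.39 and 0.62, on the other side of D1054.10 from ule-3. The polarity kinase gene par-1 was at 1.44 ± 0.60 beside D1086.1. Adjacent measured genes thus differed by more than 6 log2 units at D1054.9 and D1054.10 and by almost none at D1054.10 and ule-3.

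The excess of negative neighbours was greatest at the nearest gene. At 2, 3 and 4 places from the 100 the negative share was 20.9%, 21.6% and 20.5%, and at 5 to 10 places it ranged from 15.2% to 21.6%, without a steady trend. Around the 100 highest sequence-named genes the nearest genes leaned to the positive side, with 43 of 185 positive (23.2%) and 20 negative (10.8%). The positive share there was 20.8% and 17.7% at 2 and 3 places. A neighbourhood of like sign was thus seen at both ends of the scale and is not particular to the lowest genes.

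**Figure D4:**
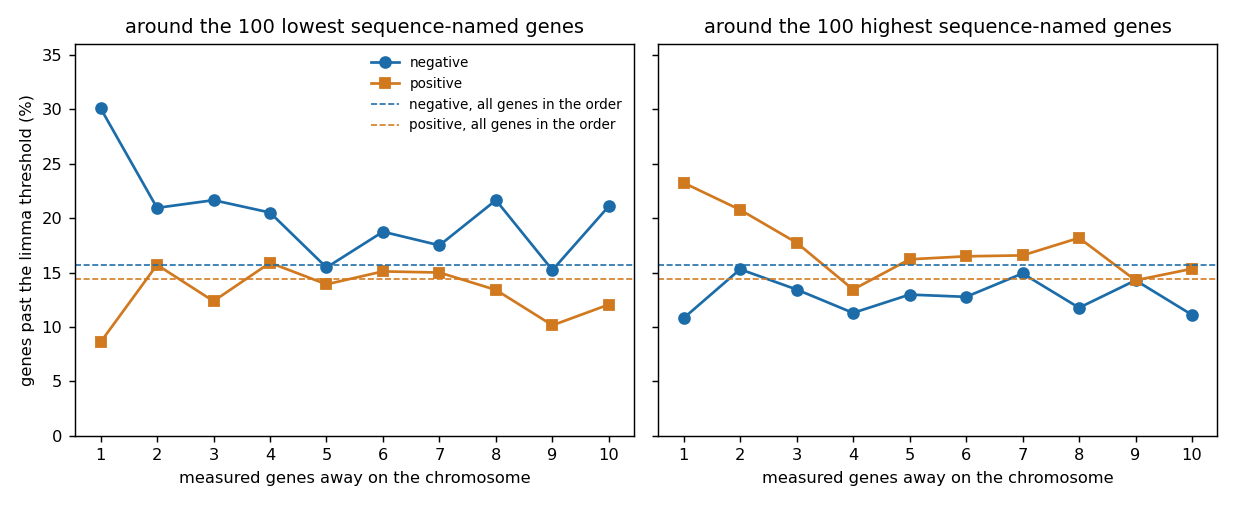
Share of genes past the limma threshold (vertical axis, %) by the number of measured genes from a gene of the 100 lowest (left) or the 100 highest sequence-named genes (right) on the horizontal axis, with those genes left out. Dashed lines are the shares over all genes in the order, 15.7% negative and 14.4% positive. The nearest genes reach 30.1% negative on the left and 23.2% positive on the right.

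Distance between probes in the deposited order was set beside this result. Genes next to each other on a chromosome mostly had probes far apart in that order, a median of 4996 places. The distances recurred at steps such as 4, 4996, 5000 and 6270 places, with 4 the shortest. That 0 of 200 pairs were within 2 places follows from these steps. The split below is by table order only and cannot tell whether probes were unrelated in position. Of the neighbours with a probe more than 4 places away, 51 of 169 were negative (30.2%), and of those within 4 places 6 of 21 (28.6%). A gene beside 2 of the 100 can count in both. Features on the probes directly before and after those of the 100 were negative in 42 of 193 (21.8%) and positive in 19 (9.84%), so the probes adjacent in the table also leaned to the negative side, with a median of -0.06. How far places in the table are places on the slide is not given in the sources used here, and its part in the result was not tested. Neighbours with a sequence name of their own were negative in 32 of 90 (35.6%) and those with a gene name in 24 of 96 (25.0%). For the 82 genes alone on their clone, a count added after the data were seen, 47 of 163 neighbours were negative (28.8%).

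The 100 genes came from 89 clones, whose other 612 measured genes, nearest neighbours included, were negative in 131 cases (21.4%) and positive in 71 (11.6%), with a median of -0.08. On the 7 clones with more than 1 of the 100, 15 of the 44 other genes were negative (34.1%) and 2 positive (4.55%).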

How the data were processed

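The values are log2 ratios deposited by the authors, 1 per probe and array. That they are log2 was read from the values: for the 100 genes, 2 to the power of the value was a multiple of 0.001, within 1e-06, for 303 of 303 values, against 0 with base e and 8 with base 10. The sources used here name no scanner, background correction, dye assignment or normalization. The medians as deposited were 0.03, -0.07 and 0.03 in preps 1, 2 and 3. Of 20000 probes, 372, 126 and 137 lacked a value in preps 1, 2 and 3.

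Each array was centred on its median over the 19512 probes with 3 values. Of 15655 probes with 1 gene symbol, 15569 were updated by Entrez identifier through the RefSeq table of assembly WBcel235, which also gave chromosome, gene order and biotype; no coordinates are printed. Probes of a gene were averaged, and 4139 unnamed probes were kept as features. limma 3.58.1 in R 4.3.3 (intercept only, eBayes, two-sided) tested 19075 features against 0, with Benjamini-Hochberg adjustment; residual degrees of freedom were 2 and the prior added 9.8. The code was tested on simulated data. The test leaves out the spread of the reference, and nothing says that the preps came from separate cultures. The p-values rest on the spread between these preps, moderated toward that of all features. With 1 array to a prep, the spread between preps cannot be told from that between arrays. The number of arrays limits the precision.

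The members, the lists and the tests were chosen with earlier results of these data known. Genes were named as the 12 lowest, 3 on each side of the border, the 5 of largest and of smallest SD, the 4 lowest and 4 highest neighbours, and the ends of each marker list. The other members are given so that all 100 are accounted for. Protein relatives, product names and promoter motifs, also planned, were not analysed here.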

Additional observations from a re-analysis of the deposited data

How the results depend on the processing

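The list of 100 depended little on the processing. It shared 100 genes with the list from uncentred values, from centring on the density peak and from the median of probes, 98 with that from scaling by the median absolute deviation and with that from probes with at least 2 values, 96 with that from centring within blocks and 92 with that from the median of the arrays. Leaving out a prep kept 91 to 92. Chosen anew without 1 prep, the 100 lowest genes had medians from -2.83 to -2.57 in the preps that chose them. That level follows from the choice. Scaling moved the medians in a left-out prep from -2.39 to -1.94 in prep 2 and from -2.95 to -3.48 in prep 3. It thus set these preps further apart. Centring on the density peak left 1659 negative and 1844 positive features, against 2624 and 2583. Over 11 alternatives the negative share of neighbours stayed between 22% and 31.2%. This was 1.63 to 2.32 times the share of all genes under the same setting. The positive share over 10 lay between 5.91% and 12.6%, or 0.55 to 0.87 times that of all genes. The 2 nearest genes on each side gave 93 negative of 365 (25.5%, all genes 15.7%). They gave 46 positive (12.6%, all genes 14.4%), nearer to the share of all genes than with the nearest gene alone. Without a prep 43 to 48 neighbours were negative and 12 to 13 positive. Over all features the calls then also fell, to between 1841 and 2190 negative and between 1785 and 2225 positive. Of 1458 values of named genes under alternatives, 1443 were counted as the same, 15 as moved and 0 as reversed in sign where called. Among those moved, scaling took C01G6.3 from -3.82 to -3.93 and W02D9.6 from -3.39 to -3.48. The cause of these shifts was not tested. Protein relatives were not run, for want of sequences. No paired analysis was possible because there is a single group. Without intensities, how far signal stood over background is unknown, and the lowest ratios rest on few steps of the deposited scale.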

Other observations

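Of the 4139 features with no gene name in the annotation, 26 had a mean at or below that of the last of the 100 genes, and the lowest of them was at -6.32, below every named gene. No gene was assigned to them.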
